A study of Saccharomyces cerevisiae with 4 samples.

Results

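The genes described here are the abundant open reading frames (ORFs) of budding yeast, Saccharomyces cerevisiae, that carried no gene name in the deposited table. A row was taken where the gene symbol only repeated the systematic name and where the mean over the 4 libraries was at least 50 RPKM (reads per kilobase of gene, scaled to the size of the library). This gave 266 of the 7126 rows, out of 1738 unnamed ORFs at any level. Poly(A) RNA had been sequenced from a T4V strain and from a wild-type (WT) strain, with 2 libraries of each. The label describes T4V as a mutation in the C-terminal domain (CTD) of RNA polymerase II, a tail of repeated heptads on the largest subunit. T4V denotes valine in place of threonine at position 4 of the heptad. The WT strain carries the unchanged CTD. The genotype rests on the label, since values per gene do not show a base change. The sources used here do not give the strain background, medium, growth phase or number of independent clones.

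Yeast genes have a systematic name that gives the chromosome, the arm, the order from the centromere and the strand, with W or C as the last letter. A letter after a hyphen marks an ORF that was added to the map later, often a short one. An ORF gets a standard name once a function or a phenotype has been published, so the unnamed ones are a mixture of uncharacterized proteins, enzymes named after the annotation was made, and reading frames that lie across other genes and may not encode a protein.

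The absence of a name held for the deposited table and not for the current annotation. Of the 266 ORFs, 234 matched the RefSeq annotation of the R64 assembly, and 113 of these carry a gene name there. Another 121 have a systematic name only, and 32 were not matched. A search of the genome for an ORF on the named strand, near the next annotated genes by name and of the length that gives whole reads, placed 27 of the 32. YBL039C-A, YBR121C-A, YBR191W-A, YDR133C and YKL145W-A were not placed. Annotated members had 25 to 1116 codons, with a median of 274, and 12 had 2 exons. Roles below are those in the RefSeq notes, given as background.

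Some of the changes described below rest on bases that belong to 2 genes at once. The shared stretches of 3 such pairs are shown 5′ to 3′ from the R64 assembly, so that the reads the partners may share can be seen. Capitals mark a start or a stop codon of either ORF. The first is the start of YER088C-A, which lies across the end of PTC2 (chrV:335946-336019, minus strand, 74 bases), the gene of a type 2C protein phosphatase.
YER088C-A and PTC2: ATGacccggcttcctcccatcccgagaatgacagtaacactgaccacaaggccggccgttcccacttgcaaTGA
The next is the start of YFR052C-A, which lies across the end of HXK1 (chrVI:253592-253734, minus strand, 143 bases), the gene of hexokinase isoenzyme 1.
YFR052C-A and HXK1: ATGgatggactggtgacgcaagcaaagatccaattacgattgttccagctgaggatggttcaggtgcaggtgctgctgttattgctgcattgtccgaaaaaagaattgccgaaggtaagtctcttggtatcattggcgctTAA
The last is the end of YNL198C, which covers the start of GCR2 (chrXIV:266514-266530, minus strand, 17 bases), a gene of transcriptional activation of glycolysis.
YNL198C and GCR2: ATGcatcaccaaacTAA

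The reads behind the RPKM scale, recovered from the steps between low values, were 3355000 and 4261000 for T4V libraries A and B and 4068000 and 3655000 for WT libraries A and B. All 266 ORFs passed the filter on low values. The reads behind 1 ORF, summed over the 4 libraries, were 122 to 29901 with a median of 1298, counted for 265 ORFs. Mean levels were 50 to 12357 RPKM with a median of 90.5, and 148 ORFs were under 100 RPKM, 109 between 100 and 1000 and 9 at 1000 or more. The median SD between the 2 libraries of a genotype was 0.0746 on the log2 scale for T4V and 0.0786 for WT. Nothing in the labels says that the libraries came from separate cultures, so the p-values measure only the spread between these libraries. The smallest p of an exact permutation test for 2 against 2 is 0.333, so single genes were tested only within the fit over all genes.

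Of the 266 ORFs, 60 rose and 29 fell in T4V by limma at an adjusted p under 0.05, and 177 did not pass. This is 33.5% of them, against 17.9% of the 5935 genes tested. The share that rose was 22.6%, against 11.7% of all genes tested, and the share that fell was 10.9%, against 6.25%. Of the other rows with a mean of at least 50 RPKM, 23.0% were called, 14.8% higher and 8.17% lower. Of the unnamed ORFs under 50 RPKM, 12.8% of the 766 tested were called. Most changes were modest. The log2 fold change, T4V minus WT on log2(RPKM + 1), had a median of 0.12 over the members, against 0.07 over all genes tested and 0.04 over the other rows at 50 RPKM or more. It ran between -2.20 and 2.47, and 170 of the 266 values were above 0. Among the called ORFs, 2 were at least 2-fold higher and 6 at least 2-fold lower. The values of the 2 genotypes did not overlap for 189 ORFs, or 71.1%, against 62% of all genes tested. The 95% interval of the change lay within 0.5 on either side of 0 for 145 ORFs. Without T4V library A 1 member was called and without T4V library B 2. Without WT library A 78 were called, 69 of them among the 89, and without WT library B 77, 68 of them among the 89. With no filter on low values 1 member was called, and with no trend in the variance 26. Each of the 89 called members had the same direction under every alternative it was fitted in. Where the genotypes do not overlap, leaving out a library or changing the pseudocount, filter or variance model cannot turn the direction. In RNA of a whole culture, fewer cells of a kind and less RNA per cell cannot be told apart.

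**Figure D1:**
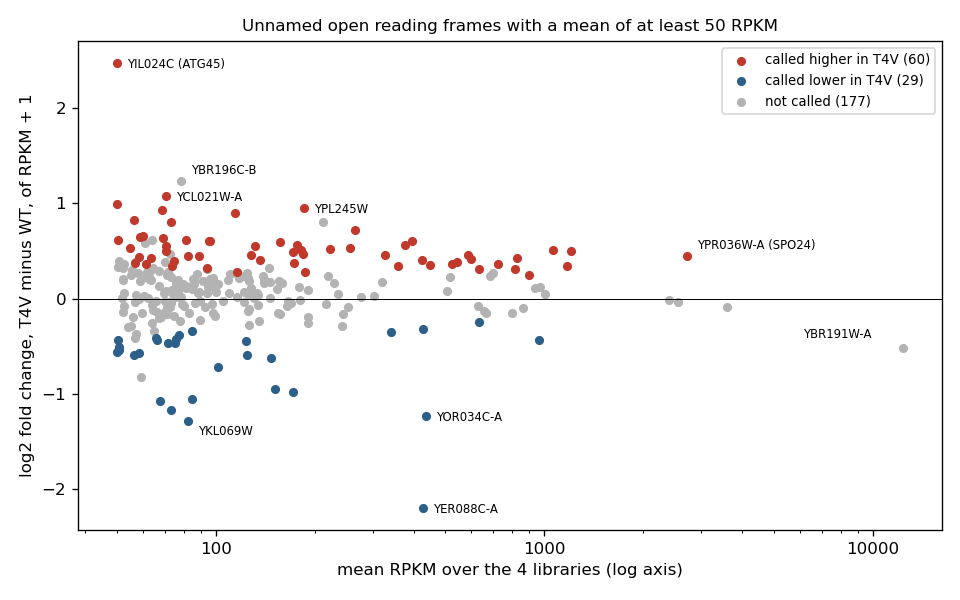
Change of each of the 266 ORFs (vertical axis, log2 fold change of RPKM + 1, T4V minus WT) against its mean level over the 4 libraries (horizontal axis, RPKM, log scale). Red points were called higher in T4V (60), blue points lower (29) and grey points were not called (177), and called ORFs are spread over levels from 50 to above 1000 RPKM.

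The threshold of 50 RPKM was applied to the mean over both genotypes, so an ORF could enter through 1 of them. It did so through T4V alone for 24 ORFs, of which 11 were called higher, and through WT alone for 15, of which 9 were called lower. These 39 had to differ in level, and their calls are no support for a change of the group. The other 227 had a mean of at least 50 RPKM in both genotypes, and 49 of them rose and 20 fell, or 30.4% in all. Just inside the threshold were YDR132C (MRX16) and YJL016W (TPH3), both with a mean that rounds to 50 RPKM, and YIL024C (ATG45) with 50.1. Just outside were YOL036W with 49.9, YCR016W with 49.8 and YDR282C with 49.7 RPKM. Both YIL024C and YJL016W therefore entered through T4V only.

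Among ORFs with a vacuolar or autophagy role were several of the largest rises, in ORFs that had entered through T4V alone. YIL024C, named ATG45 in RefSeq, encodes the receptor that brings glycogen to autophagy. It had 95.2 and 76.2 RPKM in T4V, against 14.2 and 14.9 in WT. Both T4V libraries stood far above both WT libraries, and the log2 fold change was 2.47 ± 0.13 (SE, adjusted p = 0.000215, limma), the largest rise among the members. YNL217W (PPN2) encodes a vacuolar endopolyphosphatase that works with Ppn1 to mobilize polyphosphate when phosphate is short. It had 80.5 and 66.5 RPKM in T4V and 46.1 and 46.0 in WT, a log2 fold change of 0.66 ± 0.11 (SE, adjusted p = 0.0113, limma). YHR138C is similar to Pbi2, an inhibitor of vacuolar protease B, and cells that lack both have fragmented vacuoles. Its level was 86.4 and 93.9 RPKM in T4V and 46.3 and 47.6 in WT, with a log2 fold change of 0.93 ± 0.09 (SE, adjusted p = 0.00164, limma). YCL021W-A, whose tagged protein sits in the vacuole, had 104.1 and 88.2 RPKM in T4V and 39.0 and 51.4 in WT, with a log2 fold change of 1.08 (adjusted p = 0.00554, limma). For none of these 4 did the genotypes overlap, and each entered through T4V alone. YOL159C (CSS3), a secreted protein also seen in the vacuole, had 68.2 and 76.0 RPKM in T4V, against 43.8 and 47.7 in WT, and entered in the same way. By the words vacuole, autophagy and their variants in the RefSeq note, 23 ORFs were in this group, of which 9 rose, 1 fell and 13 did not pass, with a median log2 fold change of 0.27. Of the 15 with at least 50 RPKM in both genotypes, 3 rose, 1 fell and 11 did not pass, or 26.7% called, against 17.9% of all genes tested and 30.4% of the members that passed in both genotypes. The 1 that fell was YOR387C, an ORF induced when zinc is short, with 98.9 and 106.6 RPKM in T4V and 189.6 and 210.6 in WT. The words were chosen after values had been seen, and an ORF can be in several groups.

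Of 44 ORFs with mitochondria in the note, 9 rose, 1 fell and 34 did not pass, with a median log2 fold change of 0.18. The share called was 22.7%, against 17.9% of all genes tested and 33.5% of the members. The largest change was in YBR255C-A (RCF3), an inner membrane protein that associates with respiratory chain supercomplexes. It had 162.6 and 135.1 RPKM in T4V and 78.6 and 79.9 in WT, a log2 fold change of 0.90 ± 0.10 (SE, adjusted p = 0.00305, limma). YNL200C (NNR1), the epimerase that repairs damaged NADH, had 82.9 and 85.8 RPKM in T4V and 55.7 and 52.4 in WT, with a log2 fold change of 0.63. Both T4V libraries were above both WT libraries for each. YHR162W (MPC2), a subunit of the mitochondrial pyruvate carrier, and YJR085C (TMH11) both rose by 0.56, and YEL047C (FRD1), a soluble fumarate reductase, by 0.47 on the log2 scale.

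Enzymes of oxidation and reduction went both ways. Of 16 ORFs whose note names a reductase or a dehydrogenase, 6 rose, 2 fell and 8 did not pass, where 17.9% of all genes tested were called. One of the 6 is RCF3, whose note names the complexes it binds. Of the aldo-keto reductases, YDL124W had 1260 and 1237 RPKM in T4V, against 918 and 837 in WT, and rose by 0.51 on the log2 scale (adjusted p = 0.00426, limma). YJR096W, a xylose and arabinose reductase, rose by 0.49, and YPL088W, a putative aryl alcohol dehydrogenase, by 0.42. The falls were steeper. YKL069W reduces the R form of free methionine sulfoxide, and had 44.5 and 50.1 RPKM in T4V, against 106.8 and 128.0 in WT. Its log2 fold change was -1.29 ± 0.12 (SE, adjusted p = 0.0013, limma), and it entered through WT alone. YNL134C, an aldehyde reductase that detoxifies furfural, had 101.5 and 128.2 RPKM in T4V and 249.3 and 206.9 in WT, with a log2 fold change of -0.99. Neither ORF overlapped between genotypes.

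Of the 10 ORFs with lipid in the note, 3 fell, 1 rose and 6 did not pass, and 5 of the 10 log2 fold changes were above 0. The share called was 40.0%, against 17.9% of all genes tested and 33.5% of the members. Of the 6 with at least 50 RPKM in both genotypes, 1 rose and 1 fell. YPR147C, a lipase of triacylglycerol, had 79.8 and 72.6 RPKM in T4V, against 117.4 and 135.2 in WT, and fell by 0.72 on the log2 scale. YMR010W (ANY1), a phospholipid scramblase of endosomes, fell by 0.43 on the log2 scale, and entered through WT alone. The 1 that rose was YKL047W (ANR2), with a log2 fold change of 0.36. Some enzymes outside that group also fell, named here for the size of their change and forming no list. YDR248C, a putative gluconokinase, had 56.8 and 52.4 RPKM in T4V and 116.2 and 112.4 in WT, with a log2 fold change of -1.05 ± 0.09 (SE, adjusted p = 0.0010, limma). YMR178W (FPY1), which splits FAD, fell by 0.62, YGR017W, related to pyridoxamine-phosphate oxidase, by 0.59, and YER163C (GCG1), which cleaves glutathione, by 0.54 on the log2 scale. The T4V libraries were below the WT libraries for each of them, and YER163C entered through WT alone.

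Of 32 ORFs with transfer RNA, ribosome or translation in the note, 3 rose and 3 fell, 18.8% in all, close to the 17.9% of all genes tested. Their median was 0.07, the same as over all genes. The 3 that rose, FRD1, YNL208W and YBR126W-A (MEO1), are linked to ribosomes in the notes only by co-purification or ribosome profiling. Those that fell were MRX16, which associates with the mitochondrial ribosome, YNL040W, which clears mischarged alanine transfer RNA, and YOR302W. MRX16 entered through WT alone, and the search by words did not place it among the 44 ORFs with mitochondria in the note. YOR302W is the short reading frame upstream of CPA1 whose peptide attenuates translation of CPA1. Its log2 fold change was -0.44. CPA1, 56 bases from it on the same strand, had -0.10 and did not pass (adjusted p = 0.245, limma). RAX1, on its other side, fell by 0.65 on the log2 scale. In the other groups, 29 ORFs of the endoplasmic reticulum or Golgi held 5 that rose and 2 that fell, or 24.1% called, and 24 of the cell wall or cell periphery held 4 and 1, or 20.8%. For a further 32 ORFs the note describes a change of the protein under DNA replication stress. Of these 11 rose, 5 fell and 16 did not pass. Of the 27 among them with at least 50 RPKM in both genotypes, 10 rose and 3 fell, or 48.1% called. The share was 30.4% for all members that passed in both genotypes and 17.9% for all genes tested. The difference was not tested, and the words were chosen after values had been seen.

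**Figure D2:**
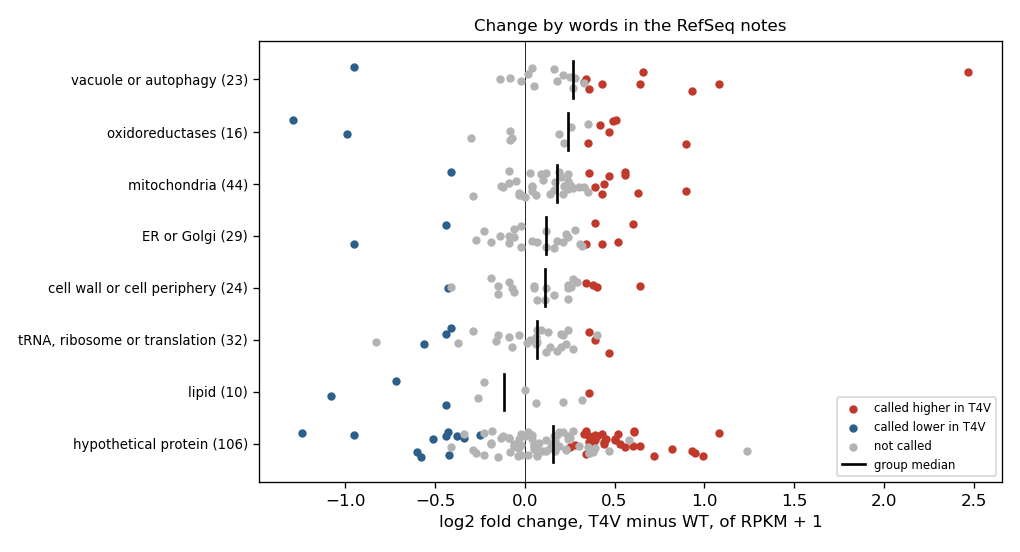
Log2 fold change of RPKM + 1, T4V minus WT (horizontal axis), of the ORFs grouped by words in their RefSeq notes (rows, with the number of ORFs), where an ORF can stand in several rows. Red points were called higher in T4V, blue lower, grey not called, and the black bar is the median, at 0.27 for vacuole or autophagy and -0.12 for lipid.

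The words hypothetical protein stand in the notes of 106 ORFs, some of which also name a place in the cell or a relative. Of these 30 rose and 11 fell, 38.7% in all, against 33.5% of the members and 17.9% of all genes tested. Of the 86 with at least 50 RPKM in both genotypes, 21 rose and 8 fell, or 33.7%. YPL245W, whose tagged protein is in nucleus and cytoplasm, had 241.3 and 249.5 RPKM in T4V and 122.8 and 130.5 in WT, a log2 fold change of 0.95 ± 0.07 (SE, adjusted p = 0.000738, limma). YJL016W (TPH3), with adjacent PH-like domains, had 64.5 and 69.2 RPKM in T4V and 34.99 and 31.3 in WT, a log2 fold change of 0.99. YBR085C-A, a small protein of nucleus and cytoplasm, had 359.3 and 302.0 RPKM in T4V and 174.4 and 227.0 in WT, a log2 fold change of 0.72. In each case the genotypes were apart. YOR034C-A is a short ORF known from expression profiling and mass spectrometry, and it fell: 255.1 and 261.7 RPKM in T4V, against 659.6 and 564.1 in WT, a log2 fold change of -1.24 ± 0.09 (SE, adjusted p = 0.000569, limma). YLR413W (INA1), a paralog of FAT3, fell by 0.60 on the log2 scale. YOL107W, seen at the early Golgi, fell by 0.57, and YHR007C-A, a small nuclear protein, by 0.51. YJR154W rose by 0.61, YJL132W, a possible target of the zinc regulator Zap1, by 0.53, YEL068C by 0.43 and YGR039W by 0.38. Of the ORFs in this paragraph, YJL016W, YJR154W, YJL132W, YEL068C and YGR039W entered through T4V alone. YLR413W, YOL107W and YHR007C-A entered through WT alone. Their calls are no support for a change of the group.

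**Figure D3:**
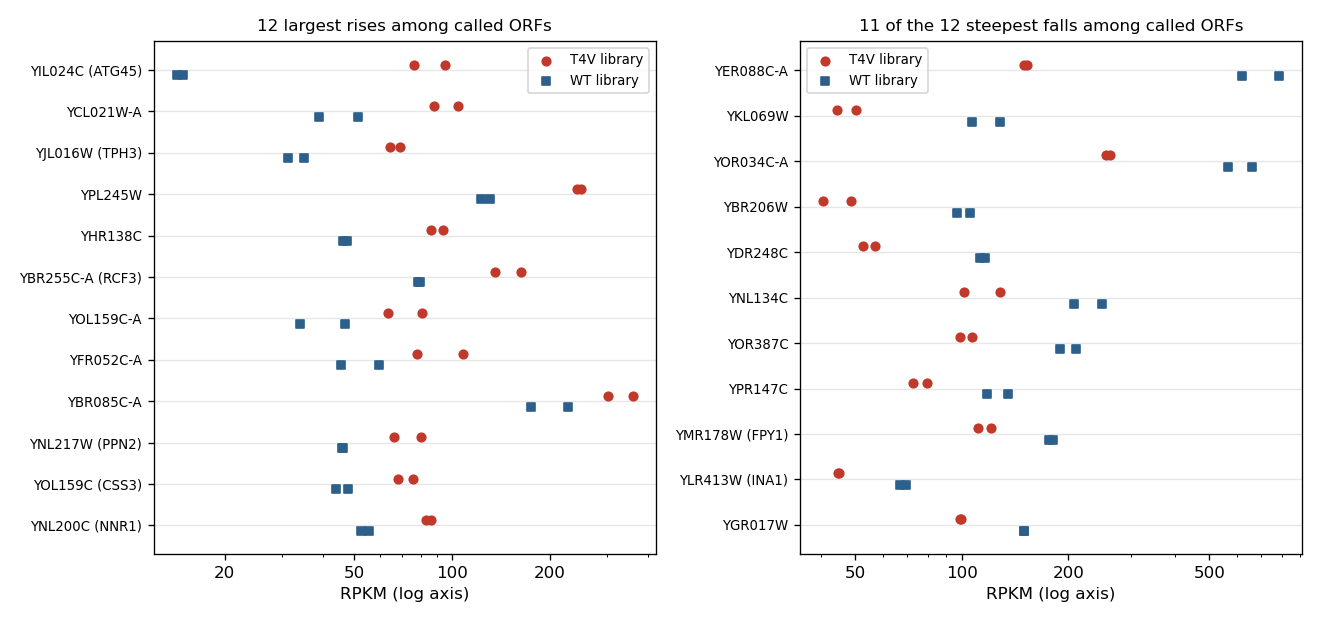
RPKM in each library (horizontal axes, log scale) of the 12 largest rises (left) and 11 of the 12 steepest falls (right) among called ORFs. Red circles are the 2 T4V libraries and blue squares the 2 WT libraries, and in every row shown the genotypes do not overlap.

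A larger share of the short ORFs was called. ORFs with a suffix in the name numbered 49, of which 17 rose and 6 fell, 46.9%, with a median log2 fold change of 0.24. The 217 with a plain name held 43 that rose and 23 that fell, 30.4%, with a median of 0.10. By length, 15 of the 31 annotated ORFs of at most 100 residues were called, against 63 of the 203 longer ones, or 48.4% against 31.0%. These are counts, and the difference was not tested. Of all genes tested, 17.9% were called. The short groups also stood at higher levels. The median of the mean levels was 155 RPKM with a suffix and 85.9 without. It was 157 RPKM for at most 100 residues and 82.4 for longer ones. Length and level were not separated. The shortest ones have few reads: YBR196C-B, of 34 codons and 122 reads in all, had 147.6 and 73.8 RPKM in T4V and 30.4 and 62.5 in WT. Its log2 fold change of 1.24 ± 0.40 (SE) was above that of every called member but YIL024C, and it did not pass (adjusted p = 0.0775, limma). It was chosen after its values were seen.

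Of the 10 ORFs of the highest level, 4 rose, none fell and 6 did not pass. Of all genes tested, 17.9% were called, 11.7% higher and 6.25% lower. YBR191W-A stood at 9104 and 10902 RPKM in T4V, against 18418 and 11004 in WT. WT library A was far above the other 3, and the log2 fold change of -0.51 did not pass (adjusted p = 0.159, limma). Its length could not be fixed from the read steps, so its reads are not given. YPR036W-A (SPO24), a small protein of the prospore membrane, had 3268 and 3018 RPKM in T4V and 2282 and 2312 in WT, and rose by 0.45 ± 0.06 on the log2 scale (SE, adjusted p = 0.00539, limma). YLR179C, similar to the carboxypeptidase inhibitor Tfs1, had 1478 and 1361 RPKM in T4V and 957 and 1046 in WT, a log2 fold change of 0.50. YOL019W (TOS7), a protein of secretion and cell wall organization, had 1218 and 1403 RPKM in T4V and 1081 and 983 in WT, a log2 fold change of 0.34 (adjusted p = 0.0384, limma). YDL124W, described above, was the other of the 4 that rose. The 6 that did not pass had log2 fold changes of -0.09 for YMR122W-A (NCW1), -0.04 for YBR090C and -0.02 for YDR524C-B. The others had 0.04 for YDR133C, 0.13 for YDR154C and -0.51 for YBR191W-A. On the same strand, 68.9% of YDR154C lies in CPR1, with a mean of 1554 RPKM, and 21.6% of YBR090C in NHP6B, with 3239. YBR191W-A was not placed, and RPL21A, beside it by name, had means of 8502 RPKM in T4V and 9454 in WT. How far these levels come from reads of the named genes was not tested.

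Reads in ORFs that lie across another gene on the same strand cannot be assigned to 1 of them with certainty. There were 32 such ORFs, and 9 of them rose and 5 fell, or 43.8%. Some of the 32 overlap each other, so the same reads may be behind more than 1 call. The 221 that overlapped no other annotated gene held 49 that rose and 22 that fell, or 32.1%. Of all genes tested, 17.9% were called. The steepest fall among the members, in YER088C-A, belongs to such a pair. It had 152.7 and 149.9 RPKM in T4V, against 787.6 and 619.0 in WT, a log2 fold change of -2.20 ± 0.11 (SE, adjusted p = 0.000182, limma). PTC2, with which it shares the 74 bases shown above, had 83.8 and 80.6 RPKM in T4V, against 399.3 and 330.9 in WT, a log2 fold change of -2.13. The 2 ORFs fell by nearly the same factor, and 22.8% of YER088C-A lies in PTC2. YBR206W has 72.8% of its length in KTR3, a mannosyltransferase gene. YBR206W had 40.5 and 48.5 RPKM in T4V and 105.5 and 97.1 in WT, a log2 fold change of -1.17, and KTR3 had -1.07. With a mean of 44.5 RPKM in T4V, YBR206W entered through WT alone, so its call is no support for a change of the group. YFR052C-A had 77.9 and 108.1 RPKM in T4V and 59.5 and 45.6 in WT, a log2 fold change of 0.81, and HXK1 had 0.82. YNL198C had a mean of 817 RPKM and GCR2 112, and 5.6% of YNL198C lies in the 17 shared bases. Both had a log2 fold change of 0.30. Over 28 pairs of an ORF and a same-strand partner that is no member, 24 had the same sign, and Pearson's r of the log2 fold changes was 0.92. This is a description across pairs that share reads, and some of these ORFs entered through 1 genotype. Of the 10 called ORFs in these pairs, 6 had a partner called the same way and 0 the other way.

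**Figure D4:**
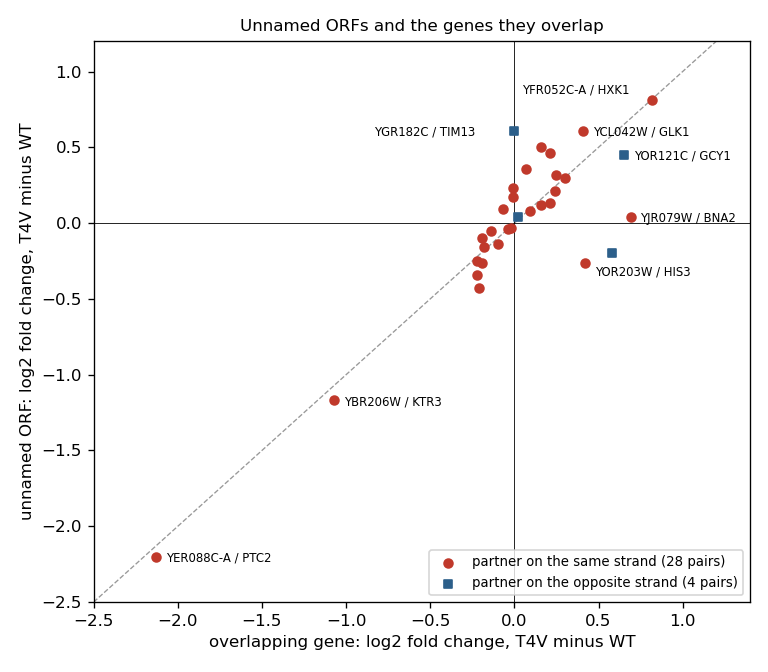
Log2 fold change of RPKM + 1, T4V minus WT, of unnamed ORFs (vertical axis) against that of the gene each overlaps (horizontal axis). Red circles are the 28 pairs on the same strand and blue squares the 4 pairs on opposite strands, the dashed line marks equal change, and the pairs YER088C-A with PTC2 and YBR206W with KTR3 lie near it at the lower left.

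There were 4 pairs with a tested partner on the opposite strand that is no member, and 2 of these had the same sign. YGR182C rose by 0.61 on the log2 scale while TIM13, which it meets end to end, had 0.00 and did not pass. YOR121C, which has 83.3% of its length across GCY1, had a log2 fold change of 0.45 and GCY1 had 0.65, both called higher. The library protocol kept the strand, but the sources used here do not say whether the counting used it. The values show it for 1 pair. YDR210W, with a mean of 87.7 RPKM, lies wholly across YDR209C on the opposite strand. YDR209C was listed at 0 in all 4 libraries, so reads of YDR210W were not counted for it.

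Genes next to a called ORF by systematic name were called the same way for 27 of the 86 that had a tested next gene, or 31.4%, and the other way for 10. Over all called genes with a systematic name this was 227 of 1013, or 22.4%. Among ORFs that rose it was 22 of 57, or 38.6%, and among all genes that rose 26.6%. Among ORFs that fell it was 5 of 29, or 17.2%, and among all genes that fell 14.8%. Among called ORFs that overlap no other gene it was 19 of 68, or 27.9%. YDL124W had both neighbours higher, with log2 fold changes of 0.48 for SNA4, a vacuolar membrane protein, and 0.32 for HNT1, a nucleotide hydrolase. YLR179C stood beside TFS1, which rose by 0.79, and the ORFs YOL159C-A and YOL159C, neighbours by name, rose by 0.82 and 0.64. Both YOL159C-A and YOL159C entered through T4V alone, so their shared direction is no support for a change of neighbours together. The counts of next genes include ORFs that entered through 1 genotype. YBR255C-A stood beside RIB5, riboflavin synthase, which rose by 0.36. Downward, SHE4 lay 66 bases from YOR034C-A on the same strand and had 29.9 and 31.5 RPKM in T4V, against 54.7 and 58.5 in WT, a log2 fold change of -0.86.

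Other neighbours went apart. One case was YOL086W-A (MHF1), a histone-fold protein of replication fork repair, which had 185.6 and 191.7 RPKM in T4V and 136.9 and 114.3 in WT, a log2 fold change of 0.59. ADH1, the alcohol dehydrogenase of fermentation, ends 102 bases from it on the other strand. ADH1 had 885 and 844 RPKM in T4V, against 2221 and 2199 in WT, a log2 fold change of -1.35 (adjusted p = 9.4e-05, limma). YMR010W fell while HXT2, a hexose transporter, rose by 0.71, and YLR413W fell while PUN1 rose by 0.38. YJL132W rose while MRS3, a mitochondrial iron carrier, fell by 0.66. The ORFs YMR010W and YLR413W entered through WT alone, and YJL132W through T4V alone.

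Large changes also lay beside ORFs that did not pass. YIR035C (NRE1), a benzil reductase, had a log2 fold change of -0.07, and its neighbour LYS1, of lysine synthesis, had 291.7 and 286.6 RPKM in T4V and 124.0 and 145.4 in WT, a log2 fold change of 1.10. YDR186C (SND1), of protein targeting to the endoplasmic reticulum, had 0.07, and UPS3 beside it 1.92. YBR056W (MRX18) had 0.35 (adjusted p = 0.0818, limma) and YBR056W-A 1.76. YPR063C had -0.27 and YPR064W 1.66, YDR524C-B had -0.02 and YDR524C-A 1.30. YGR237C had 0.23 beside SPG1 and YKL100C (YPF1) had -0.09 beside YKL100W-A. Both of these neighbours were listed at 0 in both WT libraries, with 4.14 and 4.89 RPKM for SPG1 and 3.31 and 2.61 for YKL100W-A in T4V. These values are near the floor, and the size of the change is uncertain. The SE was 0.47 for SPG1 (adjusted p = 0.016, limma) and 0.53 for YKL100W-A (adjusted p = 0.0457, limma). Downward, TMA22 had -1.02 beside YJR015W with -0.23, YMR315W-A had -1.37 beside YMR315W with -0.08, and YKL069W lay beside YKL068W-A with 0.21.

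Of genes on 3 short lists that respond to phosphate, stress and nitrogen, few stood next to these ORFs. Among all genes tested, 15 of 16 phosphate genes, 8 of 14 stress genes and 7 of 10 nitrogen genes rose and none of them fell by the same limma test. Of all genes tested, 11.7% rose and 6.25% fell. The lists were chosen with earlier results of these data known, so these counts are a description only. No member had a gene of the phosphate or the nitrogen list as its next gene by name. YBR126W-A (MEO1), a short protein of the endoplasmic reticulum, starts 457 bases from TPS1, of trehalose synthesis, in the opposite direction. It had 616.3 and 614.5 RPKM in T4V and 440.6 and 502.3 in WT, a log2 fold change of 0.39, and TPS1 rose by 0.49. YLR257W rose by 0.45 beside GSY2, a glycogen synthase with 0.24 (adjusted p = 0.0978, limma). YBR071W had -0.06 beside HSP26, a small heat shock protein gene with 0.44 (adjusted p = 0.153, limma).

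The DNA in front of the ORFs was searched for 3 short motifs, on both strands, in a window of 250 bases before to 50 bases after the first base of the annotated gene. The motifs were CACGTG, the core bound by Pho4 of the phosphate pathway and also by Cbf1, and AGGGG, the stress element bound by Msn2 and Msn4. The third was GATAAG, bound by the GATA factors of nitrogen regulation. AGGGG was in 24 of the 52 windows of ORFs that rose, or 46.2%, in 5 of 26 that fell, or 19.2%, and in 36 of 156 that did not pass, or 23.1%. It was in 21.7% of the 5993 windows of all protein-coding genes and in 33.4% of the windows of all genes that rose. CACGTG was in 4 of the 52 windows of ORFs that rose (YBR255C-A, YBR287W, YCL042W and YLR257W) and in 0 of the 26 of those that fell, against 2.9% of all windows. GATAAG was in 21.2% and 19.2% of them, against 14.7% of all windows. Among windows of all genes that rose, CACGTG was in 3.44% and GATAAG in 19.7%. Among windows of all genes that fell, CACGTG was in 0.843% and GATAAG in 12.6%. A match is a description and does not show binding. Windows of 2 of the strongest rises are printed from the R64 assembly, 5′ to 3′ on the strand of the ORF, with motif matches in capitals. That of YHR138C (chrVIII:377650-377949, minus strand) holds AGGGG and GATAAG once each, and that of YIL024C (chrIX:309122-309421, minus strand) holds none of the 3 motifs.
YHR138C: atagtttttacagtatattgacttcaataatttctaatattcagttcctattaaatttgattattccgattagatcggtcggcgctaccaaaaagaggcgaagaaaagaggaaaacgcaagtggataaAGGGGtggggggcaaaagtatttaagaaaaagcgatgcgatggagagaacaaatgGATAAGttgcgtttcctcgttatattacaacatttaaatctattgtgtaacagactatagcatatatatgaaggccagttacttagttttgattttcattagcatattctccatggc
YIL024C: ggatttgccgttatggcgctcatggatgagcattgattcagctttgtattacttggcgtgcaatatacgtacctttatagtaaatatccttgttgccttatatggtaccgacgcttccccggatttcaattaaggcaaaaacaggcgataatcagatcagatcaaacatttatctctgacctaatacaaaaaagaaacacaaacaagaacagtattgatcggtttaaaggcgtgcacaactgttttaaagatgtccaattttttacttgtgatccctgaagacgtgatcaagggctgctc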

How the data were processed

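Poly(A) RNA of 2 T4V and 2 WT libraries was sequenced on an Illumina Genome Analyzer IIx, per the labels' protocols. Alignment used Bowtie2 and the sacCer3 build, per the submitters' processing notes. The program that counted reads, its annotation and its strand setting are not given in the sources used here. Values were deposited by the authors as RPKM for 7126 rows with 1 column a library. Column names gave the genotype and a letter, A or B, but no replicate number of the labels.

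ORFs were chosen by the rule in the report and joined to RefSeq R64, from which sacCer3 is made: 6048 rows matched by systematic name. At low RPKM the values step by what 1 read adds, and for 99.48% to 99.68% of low genes the recovered reads were whole to within 0.1. At a gene length of 1 kb, 1 read is worth 0.298 and 0.235 RPKM in T4V libraries A and B, and 0.246 and 0.274 in WT libraries A and B. Copies made by PCR carried no molecular identifiers and are not independent, so read numbers cover counting error alone. No member had under 100 reads, so no read-ratio intervals were needed.

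Genes with at least 1 RPKM in at least 2 libraries were tested with limma 3.58.1 in R 4.3.3 on log2(RPKM + 1), with a variance trend, 2-sided, with calls at p under 0.05 after Benjamini-Hochberg adjustment over all 5935 genes. Adding 1 understates the change of low genes. The fit was tested on simulated data. Tables and figures were made with Python 3.11.15, pandas 2.3.3, numpy 2.4.6 and matplotlib 3.10.9. Alternatives changed the pseudocount, filter, scaling, variance model, thresholds and neighbour order, left out each library, and used voom on recovered reads. A count without overlapping ORFs and a fit with the column letter as a block were added after seeing the data.

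Members and lists were chosen with earlier results of these data known. Named ORFs are the 10 highest, the 12 largest rises and 12 steepest falls among called ones, those next to a gene called with an absolute log2 fold change of at least 1, the 3 on each side of the threshold, called ones that passed through 1 genotype, and those next to a gene of the 3 lists. Of these, 1 ORF is not reported here. Other ORFs named as examples were chosen after their values were seen. Next genes are the rows before and after by systematic name on the same arm.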

Additional observations from a re-analysis of the deposited data

How the results depend on the processing

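The number of called ORFs was 89, with 60 higher and 29 lower. With no filter on low values it was 1, with 0 higher and 1 lower, and with no variance trend it was 26, with 13 and 13. At an adjusted p under 0.01 it was 34, with 20 and 14. At a mean of at least 100 RPKM it was 47 of 118 ORFs, with 35 and 12. Leaving out 1 library gave 1 to 78 called, 1 to 54 higher and 0 to 25 lower, the low ends without a T4V library. The lone library is then assumed to vary like the other genotype. The cause of these losses was not tested. The median log2 fold change of 0.12 was 0.06 under median-of-ratios scaling and 0.06 under quantile normalization, and the count was 82 under both. Pseudocounts of 0.1 and 10 gave 88 and 90, and voom on recovered reads gave 95 of 234 fitted. Among ORFs that were not called, the sign turned for YDR133C (-0.02 under median-of-ratios scaling, -0.11 to 0.20 without 1 library), for YDR186C (-0.00), YDR524C-B (0.02) and YMR122W-A (0.00) under quantile normalization, and without 1 library for YBR071W (-0.14 to 0.02), YIR035C (-0.17 to 0.02), YMR122W-A (-0.18 to 0.00), YBR090C (-0.08 to 0.00) and YDR524C-B (-0.08 to 0.04). Counts of called ORFs with a neighbour called the same way were 31 by coordinates and 24 under median-of-ratios scaling, against 27. The column names hold the letters A and B in both genotypes but no replicate number of the labels. With the letter as a replicate block, added after seeing the data, 96 ORFs were called, with 64 higher and 32 lower, and 85 of the 89 were among them. Libraries of the same letter did not deviate together (r = -0.01 across 5935 genes). The lack of a shared deviation cannot exclude that libraries of a letter were prepared together. Depth limits the shortest ORFs, the lowest of which had 122 reads over the 4 libraries.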
